A study of Mus musculus with 3 samples.

Results

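The NF-kB family genes described here are those whose probe sets carry, in any of the 3 comparison tables deposited by the authors, a single gene symbol that begins with Nfkb or is Rel, Rela, Relb or Bcl3. The search found 9 probe sets of 7 genes among 3858 probe sets of 2944 genes named in those tables. The genes were the subunits Nfkb2 and Relb and the inhibitors Nfkbie, Nfkbia, Nfkbid, Nfkbiz and Bcl3. Nfkb1, Rel, Rela, Nfkbib and Nfkbil1 had no name there and are left aside. The deposited tables hold only probe sets past 2-fold in the authors' own ratio, so every gene found had to differ somewhere, and the number found is no measure of how much of the family changed.

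Gene expression was measured in lung RNA of 3 mice aged 16 weeks, with 1 Affymetrix array per mouse. The first mouse was wild type and gave normal lung. The second carried KA/KA-Lori-Ikkα, and the tissue taken was lung squamous cell carcinoma together with the neighbouring lung (tumour lung). The third had the same genotype, was treated to deplete macrophages, and had a somewhat inflamed lung in which no tumour was observed (depleted lung). In this line KA stands for a knocked-in IKKα that lacks kinase activity, and Lori-Ikkα for an IKKα transgene under the loricrin promoter, which is active mainly in keratinocytes. No untreated mutant lung without a tumour was analysed here, so treatment and absence of a tumour cannot be told apart. The sources used here do not give the depleting agent. With 1 array per group no value has an error and no test was possible, and precision is limited by how few arrays there are.

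NF-kB transcription factors are dimers held inactive in the cytoplasm by inhibitor proteins. In the canonical route an IKK complex marks IkBα, the product of Nfkbia, or IkBε, the product of Nfkbie, for destruction and frees the dimer. In the noncanonical route the kinase NIK acts through IKKα, the protein altered in these mice, on p100, the Nfkb2 product, which is trimmed to p52 and pairs with RelB. Nfkbid, Nfkbiz and Bcl3 encode atypical inhibitors of the nucleus that bind NF-kB on chromatin and can repress or help transcription. Several of these genes are themselves known targets of NF-kB, which makes them readouts of the pathway as well as parts of it.

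The promoter sequences of 4 of the genes are shown because they hold matches to the kB consensus, the DNA motif that NF-kB dimers bind. They are the 250 bases before a RefSeq transcript start in GRCm38.p6, 5′ to 3′ on the gene's strand, with stretches that match the consensus on either strand in capitals.
Nfkb2, chr19:46304487-46304736, plus strand: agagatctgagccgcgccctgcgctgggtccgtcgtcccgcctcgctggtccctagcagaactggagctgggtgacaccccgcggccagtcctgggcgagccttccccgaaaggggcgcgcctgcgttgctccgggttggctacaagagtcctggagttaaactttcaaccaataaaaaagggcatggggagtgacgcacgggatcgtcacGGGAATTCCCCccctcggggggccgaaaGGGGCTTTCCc
Nfkbie, chr17:45555450-45555699, plus strand: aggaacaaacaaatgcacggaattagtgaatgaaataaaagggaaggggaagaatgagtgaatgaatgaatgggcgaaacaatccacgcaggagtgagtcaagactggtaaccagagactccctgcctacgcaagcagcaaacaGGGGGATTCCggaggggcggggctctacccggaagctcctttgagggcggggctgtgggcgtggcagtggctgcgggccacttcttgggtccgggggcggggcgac
Nfkbia, chr12:55492648-55492897, minus strand: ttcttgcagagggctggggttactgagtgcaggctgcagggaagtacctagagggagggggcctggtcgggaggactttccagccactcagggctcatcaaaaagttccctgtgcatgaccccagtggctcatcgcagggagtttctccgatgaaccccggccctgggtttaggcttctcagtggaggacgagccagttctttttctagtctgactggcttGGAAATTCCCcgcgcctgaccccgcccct
Nfkbid, chr7:30422156-30422405, plus strand: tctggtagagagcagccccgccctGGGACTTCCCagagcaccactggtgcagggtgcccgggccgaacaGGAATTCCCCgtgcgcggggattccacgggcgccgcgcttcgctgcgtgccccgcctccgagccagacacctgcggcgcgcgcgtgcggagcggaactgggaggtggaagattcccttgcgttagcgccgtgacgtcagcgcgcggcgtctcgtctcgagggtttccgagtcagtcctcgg

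In the window of Nfkb2 the capital stretches begin 39 and 11 bases before the start, and the first of them holds overlapping matches. The stretch of Nfkbia begins 29 bases before the start and that of Nfkbie 106 bases before it. Of the 5 family genes with RefSeq windows here, 4 had a match in at least 1 of them, Bcl3 having none in its single window, and Relb and Nfkbiz had no window. Nfkb2 has 3 windows, each with a match, and Nfkbid has 3, of which 1 has matches. Of the whole set, 7.25% of 32851 windows and 8.23% of 27025 genes held a match. A match describes the letters of the window and not the binding of a factor.

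The array medians were 128, 124 and 127 for wild type, tumour and depleted lung, and all values below are deposited intensities unless the authors' deposited table is named. The labels of the samples were set against marker genes. The summed intensity of 7 named squamous genes of a list of 8 was 388 in wild type lung, 41274 in tumour lung and 414 in depleted lung. That of 7 named monocyte and macrophage genes of 10 was 5779, 42472 and 17700, and none of the 6 alveolar type II genes was named. Xist, transcribed from the inactive X chromosome, read 188, 15608 and 133, and the Y-linked gene Eif2s3y read 1341, 11.4 and 1467. Sex and tumour therefore cannot be told apart in any comparison with tumour lung. The 18 probe sets of the hybridization controls, which are spiked in at a fixed amount, were all brighter on the mutant arrays than on the wild type array. Their medians differed from wild type by 1.13 (tumour) and 1.29 (depleted) on the log2 scale. Setting these medians equal lowers every difference from wild type by as much. Over all probe sets the median difference is then -1.17 and -1.31.

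Nfkb2 was lowest in wild type lung and highest in depleted lung. Its intensity was 149 in wild type lung, 301 in tumour lung and 579 in depleted lung, so each array stood about as far above the one before it on the log2 scale. Tumour lung was 2.03-fold above wild type (log2 1.02), depleted lung 1.92-fold above tumour lung (log2 0.94) and 3.89-fold above wild type (log2 1.96). The authors' deposited table has ratios of 1.46, 1.51 and 2.20 for these comparisons. Nfkb2 was listed through its difference between depleted and wild type lung only, where the authors' ratio lies just inside the 2-fold limit of the table. Its single listed probe set is of the type marked x, which Affymetrix uses where probes may also bind transcripts of other genes.

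Relb, whose protein is the usual partner of p52, followed the same order with a smaller last step. It read 351 in wild type lung, 722 in tumour lung and 946 in depleted lung. The log2 differences were 1.04 for tumour against wild type, 0.39 for depleted against tumour and 1.43 for depleted against wild type lung. In the authors' deposited table the ratios are 1.66, 1.41 and 2.33. The log2 difference of tumour from wild type lung with equal control medians was -0.11 for Nfkb2 and -0.091 for Relb, so that the direction of this step depended on the scaling. Those of depleted from wild type lung were 0.67 and 0.14. Because whole lung was measured, more cells that express a gene and more RNA per cell cannot be told apart here or for any gene below.

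**Figure D1:**
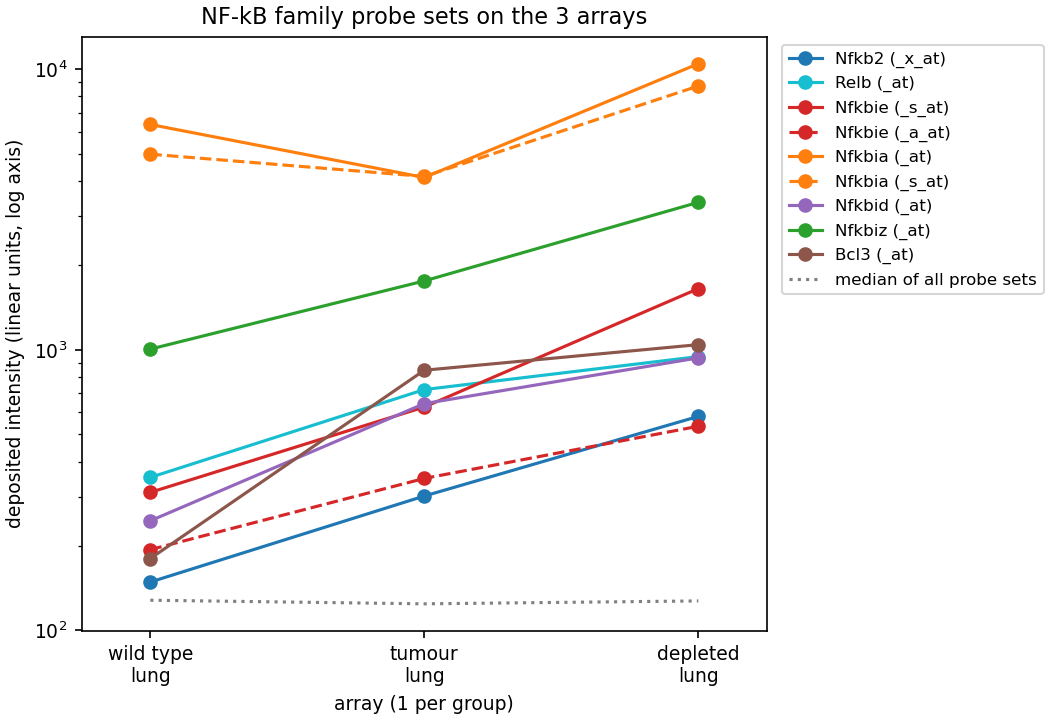
Deposited intensity (linear units on a log axis) of the 9 NF-kB family probe sets on the arrays of wild type, tumour and depleted lung, with 1 array per group. Each line is a probe set, dashed for the dimmer one of a gene, and the dotted line is the median of all probe sets. All lines but those of Nfkbia climb at both steps, while those of Nfkbia dip in tumour lung and are highest in depleted lung.

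Nfkbie, by its brighter probe set, had the widest gap between depleted and tumour lung in the family, whereas Nfkbia has it in the authors' deposited table. Its brighter probe set read 311 in wild type lung, 626 in tumour lung and 1653 in depleted lung. The dimmer one read 194, 348 and 534. Both were lowest in wild type and highest in depleted lung, but the sizes disagreed. Depleted lung was 5.32-fold above wild type by the first probe set (log2 2.41) and 2.75-fold by the second (log2 1.46), where the authors' deposited table has 3.39 and 2.58. Against tumour lung the corresponding folds were 2.64 and 1.53, where the authors' deposited table has 1.78 and 1.77. Tumour lung was 2.01-fold and 1.79-fold above wild type, and the authors' ratios are 1.91 and 1.46. With equal control medians the brighter probe set gave a log2 difference of -0.12 for tumour against wild type and 1.12 for depleted against wild type lung. The brighter probe set is of the type marked s, whose probes are shared by several transcripts that may be of other genes.

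Nfkbia, the main feedback inhibitor of the canonical route, was the brightest member and the one with another order. It read 6357 in wild type lung, 4116 in tumour lung and 10465 in depleted lung, and the second probe set read 4983, 4151 and 8718. Tumour lung was therefore the lowest array for Nfkbia and the middle one for the other 6 genes. Depleted lung stood 2.54-fold above tumour lung (log2 1.35) by the brighter probe set and 2.10-fold by the other, against 2.33 and 2.29 in the authors' deposited table, which is the comparison that listed this gene. Against wild type the log2 difference was -0.63 in tumour lung and 0.72 in depleted lung, and neither reached 2-fold. With equal control medians these were -1.76 and -0.57, so whether depleted lung lay above wild type depended on the scaling. Its wild type intensity exceeded 98.2% of the probe sets on that array, against 52.7% for Nfkb2.

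By the deposited intensities the atypical nuclear inhibitors were all lowest in wild type and highest in depleted lung. Nfkbiz, which encodes IkBζ and is induced by interleukin-1 and microbial products, read 1006, 1761 and 3357 in wild type, tumour and depleted lung. Its log2 differences were 0.81 for tumour against wild type, 0.93 for depleted against tumour and 1.74 for depleted against wild type lung, so its steps were of about equal size, as for Nfkb2. Nfkbid, which encodes IkBNS, read 246, 643 and 937, with log2 differences of 1.39, 0.54 and 1.93. Bcl3, which binds homodimers of p50 or p52, read 181, 846 and 1044, with log2 differences of 2.23, 0.30 and 2.53. With equal control medians the log2 differences of tumour from wild type lung were -0.32 for Nfkbiz, 0.26 for Nfkbid and 1.10 for Bcl3, so wild type was then not the lowest array for Nfkbiz. Those of depleted from wild type lung were 0.45, 0.64 and 1.24. Without that scaling Bcl3 had the largest difference between tumour and wild type lung in the family and the smallest between depleted and tumour lung. The authors' deposited table has 2.70 for the first of these and 1.06 for the second, and for depleted against wild type lung 2.86 where the intensities give 5.78-fold. For Nfkbiz and Nfkbid all ratios of the authors' deposited table were within 1.14-fold of those from the intensities.

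The family was counted per comparison with 1 value per gene, from the probe set with the highest mean. All 7 genes passed the level filter, which asks that the brighter array is at or above its median. In tumour against wild type lung 5 of 7 were at least 2-fold higher and none lower. Of the 24428 probe sets above the filter 9.25% were at least 2-fold higher and 10.4% lower, and of the named genes, which like the family come from the 2-fold tables, 37.5% and 38.2%. Nfkb2, Relb and Nfkbie lay at 2.01-fold to 2.06-fold, at the edge of that count, and the authors' ratios put 2 genes past it, Nfkbid and Bcl3, which the table of this comparison had listed. In depleted against tumour lung 2 of 7 were at least 2-fold higher, Nfkbie and Nfkbia, and none was lower, with 7.68% of probe sets higher and 7.26% lower and 29.5% and 27.4% of named genes. The share of the family is thus close to that of named genes. Nfkbia, and also Nfkbiz at 1.91-fold, had been listed for this comparison. In depleted against wild type lung 6 of 7 were at least 2-fold higher and none lower, the exception being Nfkbia, with 6.24% of probe sets higher and 6.34% lower and 24.6% and 20.9% of named genes. The deposited tables had listed those 6 genes for that same comparison, so nothing is read from that count. The medians of the family were 1.02, 0.93 and 1.93 in these comparisons, beside -0.11, 0.25 and -0.065 over named genes and -0.053, 0.033 and -0.026 over all probe sets above the filter. Since the listing chose the family on these comparisons, the medians are a description only.

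The order wild type, tumour, depleted lung from low to high held for 6 of 7 genes and 7 of 9 probe sets. It held for 14.3% of 25133 probe sets above the filter and for 11.5% of 2867 named genes. The comparisons share arrays, and 6 of the genes were listed because depleted lung exceeded wild type, so the listing fixes part of this order. For Nfkbid and Bcl3 it also fixes that tumour lung lies above wild type. With equal control medians, 1 gene (Bcl3) remained at least 2-fold higher in tumour than in wild type lung and Nfkbia was at least 2-fold lower. In depleted lung against wild type Nfkbie and Bcl3 then remained past 2-fold. Relative to the median of all probe sets, 6 of 7 genes were higher in tumour lung and all 7 in depleted lung. That median moves by as much as each gene under this scaling. These counts are therefore the same with and without it, and nothing is read from them.

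**Figure D2:**
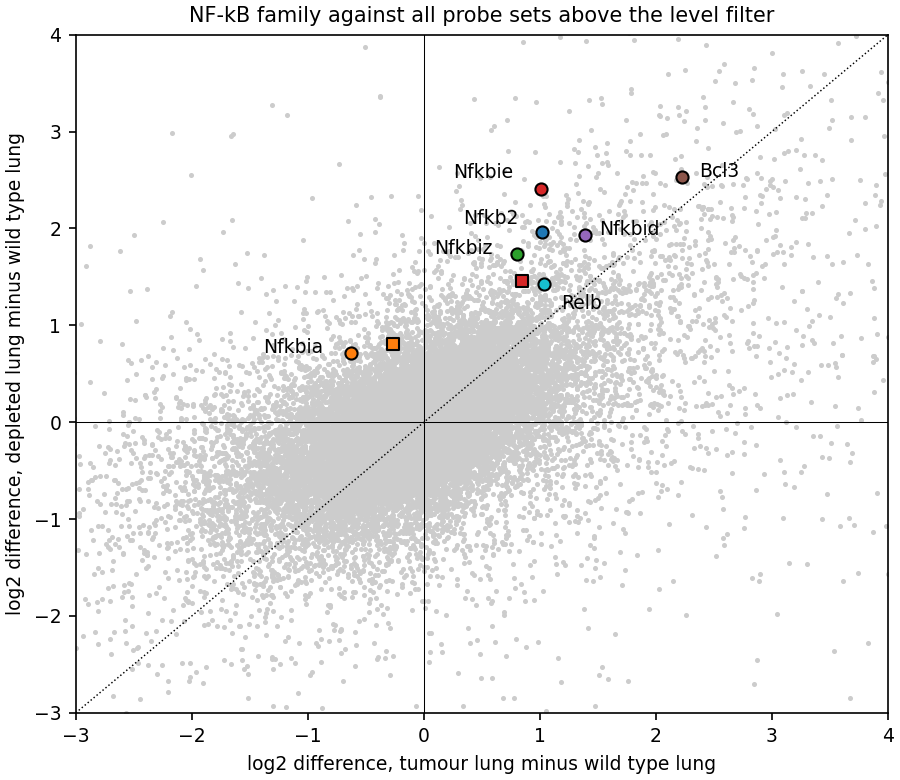
Log2 difference from wild type lung in tumour lung (horizontal axis) and in depleted lung (vertical axis) for each probe set above the level filter (grey) and the 9 NF-kB family probe sets (coloured, squares for the dimmer probe set of a gene). The dotted diagonal marks equal values in both mutant lungs, points beyond the axes are not drawn, and all 9 family probe sets lie above the diagonal, with Bcl3 nearest to it.

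**Figure D3:**
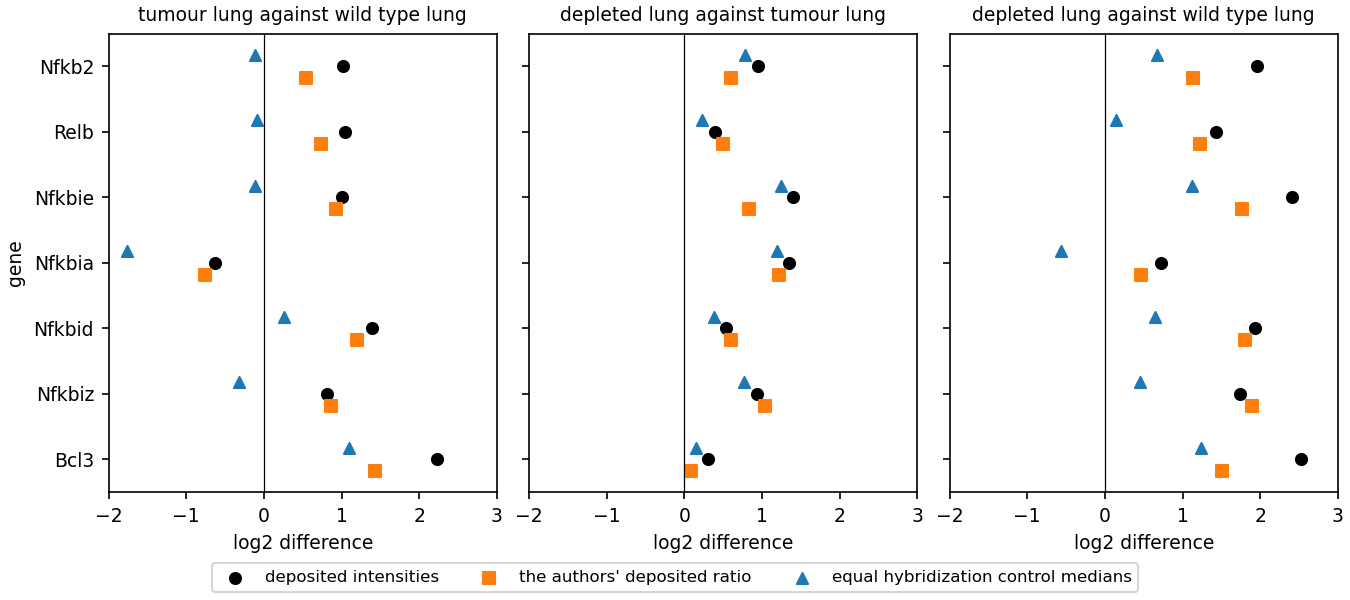
Log2 difference of each family gene in the 3 comparisons from the deposited intensities (circles), from the authors' deposited ratio (squares) and with equal medians of the hybridization controls (triangles). All values for depleted against tumour lung lie above 0, while with equal control medians 5 of the 7 genes lie below 0 in tumour against wild type lung.

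Other pathway genes came from a list of 81 genes outside the family, of which 34 were named in the deposited tables and the others are not analysed here. Among those above the filter, 15 of 33 (45.5%) were at least 2-fold higher in tumour than in wild type lung and 2 were lower, against 37.5% and 38.2% of all named genes. In depleted against tumour lung 13 of 34 (38.2%) were higher and 4 lower, against 29.5% and 27.4%. In depleted against wild type lung 25 of 33 (75.8%) were higher and 1 was lower, against 24.6% and 20.9%. The medians were 0.94, 0.64 and 1.40, against -0.11, 0.25 and -0.065 over named genes. Over all probe sets above the filter 9.25%, 7.68% and 6.24% were higher and 10.4%, 7.26% and 6.34% lower in these comparisons. By the authors' ratios 29 list genes, family included, were at least 2-fold higher in depleted than in wild type lung. The listing thus fixes much of that count, and nothing is read from it. Since every gene was listed for differing somewhere, the other counts and the medians are a description only. With equal control medians the list including the family had 9 genes higher and 10 lower in tumour against wild type lung (20 and 2 without scaling), and 10 higher and 3 lower in depleted against wild type lung (31 and 1 without scaling).

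Ligands of receptors that feed the noncanonical route differed in their order. Ltb, which encodes lymphotoxin β, read 191 in wild type lung, 571 in tumour lung and 1405 in depleted lung, the same order as Nfkb2 and Relb. Lta, its partner in the heterotrimer, read 7.34, 46.9 and 147, and only the depleted array was above its median. Depleted lung was at least 4.23-fold above wild type for Lta, a lower bound taken against the 25th percentile of the wild type array, where the authors' deposited table has 2.09. Tnfsf11, which encodes RANKL, read 6.96, 209 and 202, so both mutant lungs were higher than wild type and close to each other. Its differences from wild type were at least 6.02-fold and at least 5.80-fold. The ratios in the authors' deposited table are 3.40 and 3.32. Tnfsf13b, which encodes the B cell survival factor BAFF, read 948, 1095 and 418. Within the pathway list it was the 1 named gene at least 2-fold lower in depleted lung than in both other lungs. In the authors' deposited table it is 2.59-fold lower than in tumour lung and 1.81-fold lower than in wild type lung.

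Ligands of the canonical route were split as well. Il1b, an inducer of NF-kB and also a target, read 467, 770 and 3260, which puts depleted lung 4.23-fold above tumour lung and 6.99-fold above wild type. Il18 read 2105, 946 and 2696 and was lowest in tumour lung, as Nfkbia was. Il18 and the chemokine gene Ccl5, with 1242, 567 and 2101, made up the list genes at least 2-fold lower in tumour than in wild type lung. Il18r1, with 4273 in wild type and 2138 in tumour lung, lay just short of the threshold. In the authors' deposited table Il18r1 is past it at 2.04-fold lower and Ccl5 is not at 1.77-fold.

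The receptor genes Cd40 and Tnfrsf13c, whose proteins signal to NIK, were higher in depleted than in tumour lung. Cd40, found on B cells and other antigen-presenting cells, read 395, 319 and 1043 in wild type, tumour and depleted lung. A second probe set of Cd40 read 313, 347 and 925, so the order of wild type and tumour lung is unsettled for this gene. Tnfrsf13c, the BAFF receptor gene of B cells, read 146, 87.8 and 303. Depleted lung was 3.27-fold and 3.45-fold above tumour lung for these genes, where the authors' deposited table has 2.09 and 2.24. Tnfrsf1b, the gene of TNF receptor 2, read 537, 1230 and 1404, so its mutant arrays were close to each other.

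Both named kinases had the order of Nfkb2, lowest in wild type and highest in depleted lung. Ikbke, which encodes the IKK-related kinase IKKε, read 128, 465 and 1008, and depleted lung was 7.86-fold above wild type (3.80 in the authors' deposited table). Map3k8, whose kinase is held by the Nfkb1 precursor p105, read 374, 716 and 1105. Chuk and Map3k14, the genes of IKKα and NIK, were not named in the deposited tables.

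Adaptors and feedback genes differed in their order. Birc3, a ubiquitin ligase that keeps NIK low in resting cells and a known NF-kB target, read 1413, 2758 and 4954 and so had the same order as Nfkb2. Tnfaip3, the gene of the feedback inhibitor A20, read 805, 2095 and 2541. Malt1, the paracaspase of antigen receptor signalling, was instead highest in tumour lung, with 375, 1714 and 972. Irak3, an inhibitor of Toll-like receptor signalling, was higher in depleted lung alone, with 396, 380 and 830.

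Known target genes did not share 1 order either. Cxcl1, a neutrophil attractant, read 84.1, 1254 and 4649 in wild type, tumour and depleted lung, the order of Nfkb2. Other probe sets of Cxcl1 read 86.2, 1258 and 3440, and 274, 724 and 1143, which keep the order and differ in size. Cxcl2 read 42.4, 838 and 813, nearly equal in both mutant lungs by the intensities. In the authors' deposited table depleted lung is 1.39-fold above tumour lung for Cxcl2. Ccl2, a monocyte attractant, read 70.4, 1169 and 355, and Lcn2, a neutrophil and epithelial protein gene, read 1707, 25803 and 18055, both highest in tumour lung. The authors' deposited table has 12.2 for Cxcl1 in depleted against wild type lung where the intensities give 55.3-fold, and 8.03 for Cxcl2 and 8.91 for Ccl2 in tumour against wild type lung where they give 19.8-fold and 16.6-fold. Ccl2, Il6, Cxcl12 and Tnfsf13b were the list genes at least 2-fold lower in depleted than in tumour lung. For Il6 the intensities were 11.7, 311 and 85.9, and for Cxcl12 949, 5192 and 2292.

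**Figure D4:**
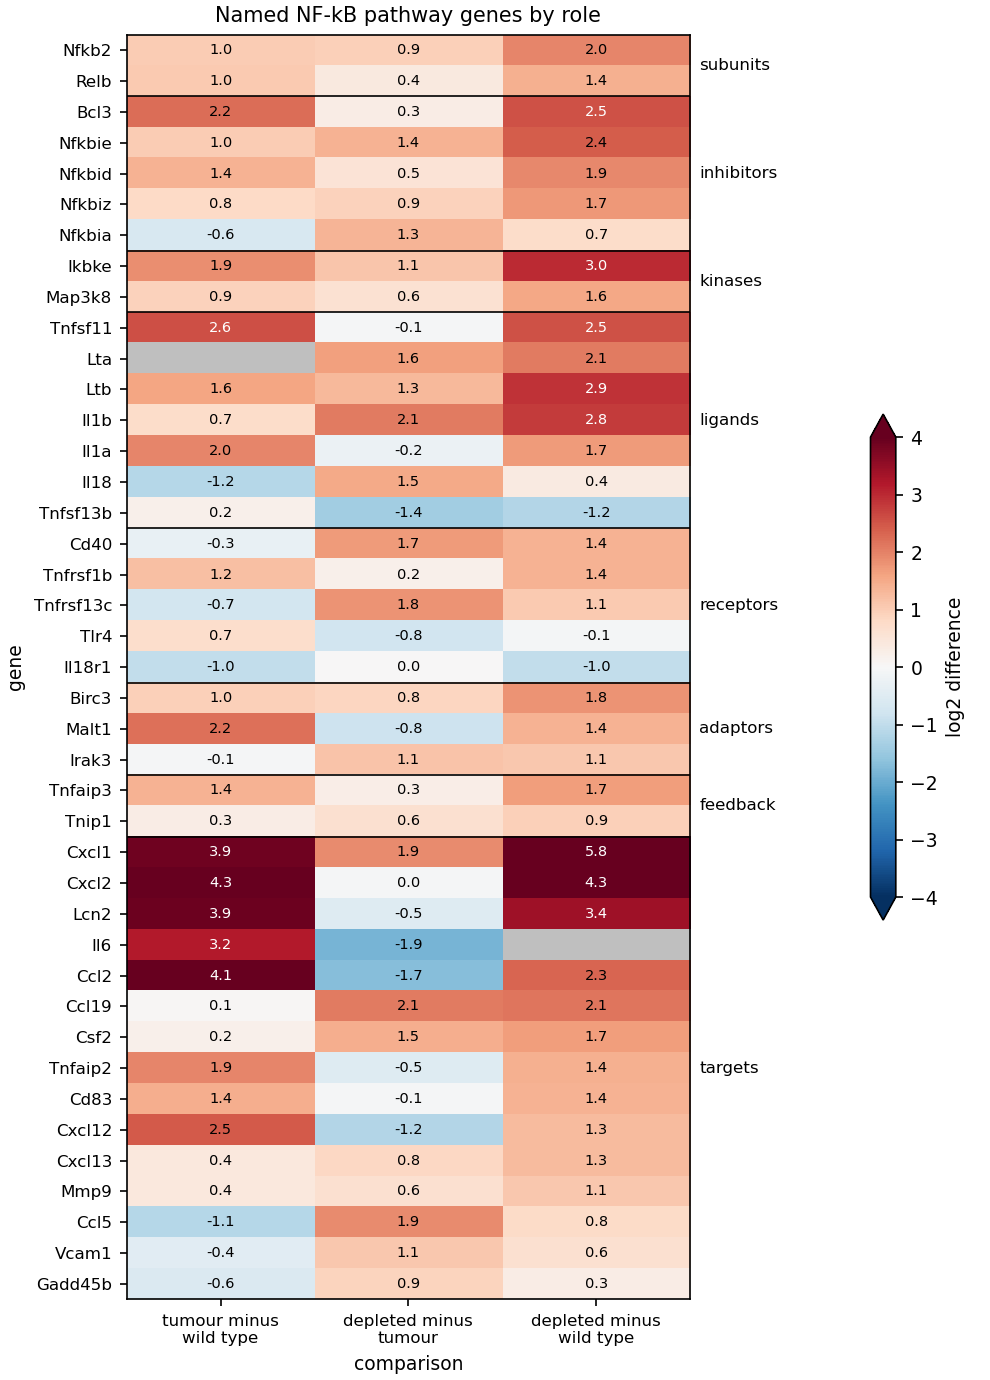
Log2 difference of the 41 named NF-kB pathway genes, family included, in the 3 comparisons (columns), grouped by role. Red is higher and blue lower in the lung named first, grey marks pairs in which the brighter array was below its median, and values against arrays below their 25th percentile are lower bounds. In depleted against wild type lung 31 genes are at least 2-fold higher and 1, Tnfsf13b, is lower. The listing chose these genes for differing somewhere, so the counts are a description only.

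Markers of immune cells differed between the arrays, and only some of their lists had the order of the family. The summed intensity of 6 named T cell genes of 8 was 1973 in wild type lung, 4550 in tumour lung and 11165 in depleted lung, and 4 of the 6 were at least 2-fold higher in depleted than in tumour lung. That of 6 named neutrophil genes of 8 was 4475, 31637 and 71548, and all 6 were higher in depleted than in tumour lung. Most of this sum came from S100a8 (2272, 16086 and 37994) and S100a9 (1614, 14352 and 29866). The T cell and neutrophil sums have the order that 6 of the 7 family genes have. However, Cd2 of the T cell genes (448, 439 and 1105) was nearly equal in wild type and tumour lung. Mpo of the neutrophil genes read 127, 78.0 and 219, but was below the array median in both wild type and tumour lung. For Mpo the authors' deposited table has a ratio of 1.14 for tumour against wild type lung, which is the other direction. Of the 7 monocyte and macrophage genes, in contrast, 5 were at least 2-fold lower in depleted than in tumour lung, while no family gene was. The sum of 6 named B and plasma cell genes of 10 was 3357, 14374 and 11571, most of it from the plasma cell gene Jchain (1145, 11665 and 5102), while 4 of the 6 genes were at least 2-fold higher in depleted than in tumour lung and 1 was lower. That of 3 named dendritic cell genes of 7 was 2135, 5418 and 3835, most of it from Itgax (1200, 4969 and 1673), which macrophages also express. The other dendritic cell genes were highest in depleted lung, Ccr7 with 268, 259 and 1352 and Zbtb46 with 667, 191 and 809. The sum of 6 named endothelial genes of 7 was 40976, 6327 and 30489, lowest in tumour lung as Nfkbia was. Of these genes 5 were at least 2-fold higher in depleted than in tumour lung. The exception was Kdr, which was lowest in depleted lung (4770, 999 and 840). No named gene of these lists was below the 25th percentile of the arrays on all 3 of them. The part of these cell types in the values of the family was not tested.

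The named genes with the pattern most like Nfkb2 over the 3 arrays were A130071D04Rik, Stat4, Hmox1, Cdhr1 and Pla2g2d. Their pairs of log2 differences from wild type lay within 0.048 to 0.14 of that of Nfkb2, as the Euclidean distance among 2867 named genes. Those most like Nfkbie were Fkbp5, Btg1, Cd3g, Nlrp12 and Samsn1, at distances of 0.20 to 0.28. With 3 arrays such nearness describes the values only.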

How the data were processed

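RNA from lung homogenates was biotin-labelled and hybridised to 1 array per mouse, per the labels' protocols. The authors deposited linear intensities of 45101 probe sets (64 controls). Their summarisation and scaling, and any centring, are not stated. The submitters' processing notes name Partek with no version. The authors also deposited 3 tables of ratios between samples, per the file headers, which together hold 4310 probe sets, each past 2-fold in the comparison of its own table.

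Intensities were taken to log2 with no further scaling. Probe sets were named through the deposited tables, with symbols updated by RefSeq accession, and a gene took its listed probe set of highest mean. A gene entered a comparison where its brighter array reached that array's 50th percentile. A dimmer side below the 25th percentile gives a lower bound. Called means at least 2-fold. Genes printed were the family and, per role of the pathway list, up to 4 with the largest differences. Those that make up counts of lower genes (Il18, Ccl5, Tnfsf13b, Il6, Cxcl12), and Il18r1, were chosen after their values were seen. The 5 nearest genes were given for Nfkb2 and Nfkbie only. The members and lists were chosen with earlier results of these data known.

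Alternatives were quantile normalization, equal 75th percentiles, equal medians of 18 hybridization controls, raised low values, the mean over probe sets, other filters, 1.5-fold and 3-fold thresholds, and the authors' ratios. For the 5 genes other than Nfkb2 and Nfkbie they were added after seeing the data. The kB consensus was searched by pattern in RefSeq promoters (GRCm38.p6). The log2 difference, the 2-fold call and the level filter were tried on wild type values with simulated shifts and noise. The other steps were not tried on simulated data. The software was Python 3.11.15 with pandas 2.3.3, numpy 2.4.6 and matplotlib 3.10.9.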

Additional observations from a re-analysis of the deposited data

How the results depend on the processing

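A value was counted as moved where it changed by over 1.5-fold. With equal medians of the hybridization controls, the log2 differences of tumour against wild type lung changed sign, to -0.11 for Nfkb2, -0.12 for Nfkbie, -0.091 for Relb and -0.32 for Nfkbiz (0.81 without scaling), that of depleted against wild type lung changed sign for Nfkbia, to -0.57, and those of depleted against wild type lung moved to 0.67 for Nfkb2 and 1.12 for Nfkbie. This follows from the brighter controls on the mutant arrays. In the authors' deposited table the latter were 1.14 and 1.76, and the cause was not tested. Of the other alternatives for Nfkb2 and Nfkbie, none moved a difference or changed its sign. The pathway list, in the order higher and lower, had 20 and 2 genes in tumour against wild type lung. It had 9 and 10 with equal control medians, 12 higher and 0 lower at a 3-fold threshold, and 6 lower at 1.5-fold. In depleted against tumour lung it had 15 and 4, with 23 higher at 1.5-fold and 7 and 2 at 3-fold. In depleted against wild type lung it had 31 and 1, with 10 and 3 under equal control medians, 19 and 0 at 3-fold, 2 lower both at 1.5-fold and under quantile normalization, and 0 lower by the authors' ratios. No paired analysis was possible because each group has 1 array. Detection calls were not used, so signal over background was judged by array percentiles only.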
